A study of Mus musculus with 14 samples.

Results

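The miR-26 family was described through the rows of the deposited miRNA table that carry a 5p name of a miR-26a or miR-26b hairpin at the annotated start. They were chosen by name and by their high abundance in this epithelium, which is therefore not a finding. The rule found 3 of the 534 rows at an annotated start, among 2030 rows in all: mmu-mir-26a-1-5p, mmu-mir-26a-2-5p and mmu-mir-26b-5p. The first pair are hairpin copies of the same mature miRNA, so the rows hold 2 mature sequences.

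The 14 small RNA libraries came from small intestine of C57BL/6J mice with a Sox9-eGFP transgene, a reporter whose green fluorescence tracks Sox9. By fluorescence, cells were sorted into Negative, Sublow, Low and High populations (n = 3 libraries each), and Non-sorted cells gave a further 2 libraries. All 5 groups are labelled with the same strain and tissue, no other treatment is given, and the age of the animals is not given in the sources used here. In this reporter mouse, Negative cells have been linked to differentiated cells, Sublow to transit-amplifying progenitors, Low to crypt stem cells and High to the enteroendocrine lineage. A sorted population is a fluorescence range and not a single cell type. The labels give same-numbered libraries of different populations a shared code whose meaning they do not state. They do not say which libraries came from separate animals, so the p-values rest on the spread between libraries, which may be technical, and the tests left the code out unless a replicate block is named.

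MicroRNAs guide Argonaute proteins to messenger RNAs mainly through the seed, bases 2 to 8 from the 5′ end, and miR-26a and miR-26b share that seed. The family is known as a repressor of Ezh2, the methyltransferase of Polycomb complex PRC2. Its transcription is repressed by MYC in lymphoid cells, and it has been studied in mouse intestinal tumours. Each hairpin lies within a gene for a small C-terminal domain phosphatase, and host and miRNA are often transcribed together.

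The mature sequences are shown because a shared seed is what makes these miRNAs a family and because the few bases that differ let a read be assigned to miR-26a or miR-26b. They are the RefSeq entries, written 5′ to 3′ with the seed in capitals.
miR-26a-5p: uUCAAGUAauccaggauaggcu
miR-26b-5p: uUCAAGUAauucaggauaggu
The first has 22 bases and the second 21. Counted from 1 at the 5′ end, with the miR-26a base first, they differ at C11U and C21U, both outside the seed, and miR-26a has 1 base more at its 3′ end. No other mature miRNA name in the RefSeq table had the seed UCAAGUA.

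The hairpins are shown because the bases in front of the mature start decide what an upstream-shifted read begins with. The mature 5p stretch is in capitals, and coordinates are those of RefSeq on GRCm38.p6, while the submitters' processing notes name build mm9 for the reads.
Mir26a-1: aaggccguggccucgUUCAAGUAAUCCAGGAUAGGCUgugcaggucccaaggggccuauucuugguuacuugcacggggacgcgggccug
Mir26a-2: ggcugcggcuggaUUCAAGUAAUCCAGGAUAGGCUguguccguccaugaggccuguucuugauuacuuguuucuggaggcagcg
Mir26b: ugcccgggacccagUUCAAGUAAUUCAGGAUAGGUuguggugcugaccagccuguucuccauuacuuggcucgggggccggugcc
Mir26a-1 lies at chr9:119031796-119031885 on the plus strand, within Ctdspl and outside its annotated exons. Mir26a-2 lies at chr10:126995530-126995613 on the plus strand, within Ctdsp2, where it overlaps an exon of 1 annotated transcript by 1 base. Mir26b lies at chr1:74394310-74394394 on the plus strand, within Ctdsp1 and outside its annotated exons.

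Values are RPM over miRNA rows, which sum to 1e+06 in each library, so a level is a share of the library's miRNA reads and not an amount per cell. In such bulk samples, fewer cells that make a miRNA and less miRNA per cell cannot be told apart. Depth was estimated from the steps between low values, with the smallest value listed above 0 in a library assumed to be about 10 reads. On that assumption it was 1.89 to 16.4 M reads (M, 1e+06), which puts 13353 to 472777 reads behind each member in each library. Another assumed number would change these figures, and reads in PCR libraries are not independent molecules. The 4 libraries whose labels carry the word Combo in place of a lane are High 1, High 2, Low 2 and Low 3. They list the family's 5p rows shifted by 4 bases upstream, which the others list at 0. The miRNA miR-295-3p of pluripotent cells is listed above 0 in 7 libraries spread over all 5 groups. Summed levels of the enteroendocrine markers miR-375-3p, miR-7a-5p and miR-7b-5p (3 of 3 matched) ran from 2551 to 3634 RPM in Negative, 24003 to 25588 in Sublow, 82016 to 106946 in Low, 151003 to 172443 in High and 13212 to 23259 in Non-sorted libraries. The enterocyte miRNAs miR-192, miR-194 and miR-215 (3 of 3 matched) held 530524 to 534071 RPM in Negative, 387865 to 398501 in Sublow, 161969 to 190387 in Low, 132476 to 158651 in High and 460716 to 555285 in Non-sorted libraries, and their share sets how much of a library is left for other rows. The 5 miR-200 family markers of epithelium were all detected, at summed levels of at least 24800 RPM in every library. Of the markers of other cell types, 3 of 5 mesenchymal ones were matched and stayed at or below 56.1 RPM summed, 5 of 5 haematopoietic ones at or below 213 RPM, 2 of 2 endothelial ones at or below 17.1 RPM, and 1 of 2 erythroid ones was matched and listed at 0 throughout. The 6 markers of pluripotent cells (6 of 6 matched) summed to 0 to 2075 RPM in Negative, 0 to 1972 in Sublow, 0 to 986 in Low, 0 to 2245 in High and 1573 to 1766 in Non-sorted libraries. Where these marker sums differ along with the family, their part in the results was not tested.

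Levels of miR-26a were low in Negative cells and high in Low and High cells. The row mmu-mir-26a-2-5p had 9567, 10787 and 11050 RPM in Negative, 15823, 14774 and 16843 RPM in Sublow, 30322, 27049 and 27302 RPM in Low, 35214, 34270 and 28158 RPM in High and 11008 and 12292 RPM in Non-sorted libraries. Means were 10468 ± 791 RPM in Negative, 15813 ± 1035 in Sublow, 28224 ± 1821 in Low and 32548 ± 3830 in High (SD, n = 3 each), and 11650 ± 908 in Non-sorted cells (SD, n = 2). Negative, Sublow and Low did not overlap, Low and High did, since the lowest High library lay within the Low range, and of the Non-sorted libraries 1 lay within the Negative range and 1 just above it. Averaged over all libraries, miR-26a was the 8th most abundant mature miRNA at 20319 RPM, between miR-21-5p at 24431 RPM and miR-200c-3p at 17031 RPM. Among rows at an annotated start, with both copies counted, it ranked 13 to 14 in Negative, 13 to 16 in Sublow, 7 to 8 in Low and 8 to 9 in High libraries.

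The second copy added no separate information. In every library mmu-mir-26a-2-5p was higher than mmu-mir-26a-1-5p by 0.0864 to 0.427%, although the hairpins lie on different chromosomes, and the mature sequence is the same. The reads cannot be assigned to either hairpin, and the files do not settle whether both rows count the same reads. Values below are those of mmu-mir-26a-2-5p, and mmu-mir-26a-1-5p gave the same call in every comparison.

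miR-26b followed another course. The row mmu-mir-26b-5p had 7061, 7472 and 7555 RPM in Negative, 11890, 9486 and 13565 RPM in Sublow, 10378, 11412 and 10428 RPM in Low, 9085, 7713 and 7060 RPM in High and 7465 and 6889 RPM in Non-sorted libraries. Its means were 7363 ± 265 RPM in Negative, 11647 ± 2050 in Sublow, 10739 ± 583 in Low and 7952 ± 1034 in High (SD, n = 3 each), and 7177 ± 407 in Non-sorted cells (SD, n = 2). The middle populations were high and the outer ones low, with Sublow and Low overlapping each other and Negative and High overlapping each other. miR-26b was the 22nd most abundant mature miRNA, at 9104 RPM over all libraries. Together the 3 rows held 2.62 to 7.94% of a library, the lowest in Negative 1 and the highest in High 1.

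**Figure D1:**
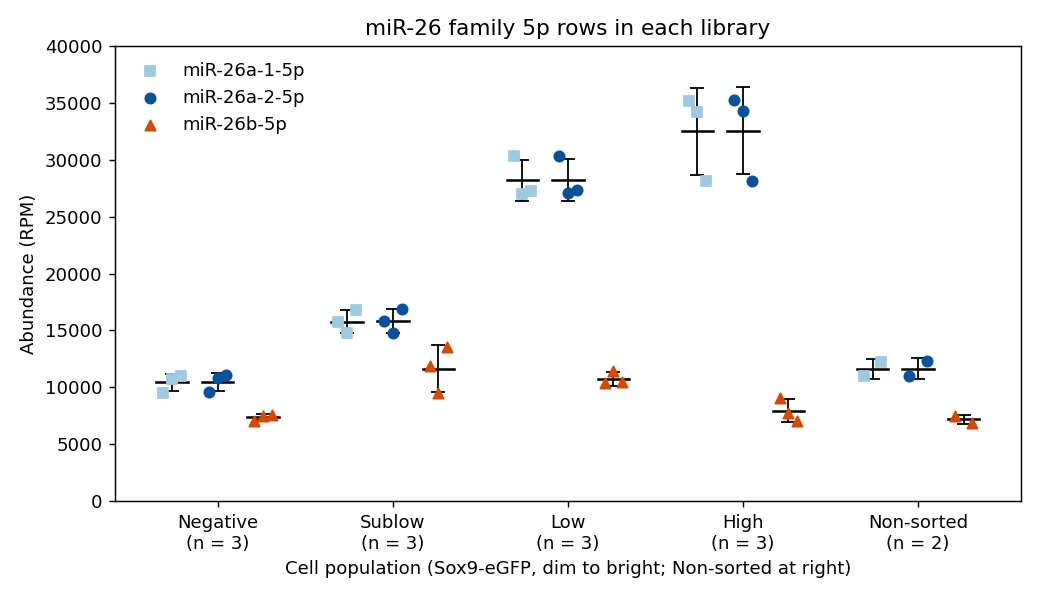
Abundance of the 3 miR-26 family rows in every library, in RPM on a linear axis from 0, by cell population. Each point is a library, horizontal lines are means and bars are SD. miR-26a averages 10468 RPM in Negative and 32548 RPM in High cells, whereas miR-26b is highest in Sublow and Low cells.

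Differences between populations were tested with limma on log2(RPM + 1) over the 588 rows with at least 10 RPM in at least 3 libraries, with Benjamini-Hochberg adjustment over all of them. Both mature miRNAs differed among the 4 sorted populations, miR-26a with F = 111 (adjusted p = 1.21e-07) and miR-26b with F = 12.7 (adjusted p = 0.00128). In the same test 72.3% of all rows were called, so a call by itself does not set the family apart. Differences below are log2 values, first population minus second, and a shift of all rows is given beside them because the median of all tested rows itself moved between populations.

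Negative cells had less miR-26a than Low cells, by 2.70-fold. The log2 difference was -1.43 (SE 0.10, adjusted p = 1.75e-07), and no Negative library reached a Low one. miR-26b was lower in Negative than in Low cells in RPM, with a difference of -0.54 (SE 0.13, adjusted p = 0.0025), but this direction turned under 3 other scalings. In this comparison 66% of all rows were called and the median row lay at -0.90, so miR-26a was lower than the median row and miR-26b higher than it. Median-ratio rescaling centres the typical row among those above 0 in all libraries, and here it put the median tested row at -0.02. After it, miR-26a stayed lower in Negative cells at -0.56 (adjusted p = 0.00273), while miR-26b stood at 0.33 (adjusted p = 0.0718). With quantile normalization, miR-26b was called higher in Negative cells at 0.45 (adjusted p = 0.0216). Within lane L005, with 1 library on each side, the differences were -1.46 for miR-26a and -0.46 for miR-26b.

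Sublow cells had less miR-26a than Low cells, and their miR-26b was not called different. miR-26a differed by -0.84 (SE 0.10, adjusted p = 7.89e-05), with no overlap between Sublow and Low libraries. miR-26b differed by 0.10 (SE 0.13, adjusted p = 0.547), with a 95% interval of -0.17 to 0.38. Of all rows 34.7% were called here, and the median row lay at -0.43. After median-ratio rescaling miR-26a stood at -0.44 (adjusted p = 0.0197) and miR-26b at 0.50 (adjusted p = 0.0191), and with the RPM recomputed without miR-192, miR-194 and miR-215 they stood at -0.32 (adjusted p = 0.0970) and 0.62 (adjusted p = 0.00437). Within lane L005, with 2 Sublow libraries and 1 Low library, the differences were -0.89 and 0.29.

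Between High and Low cells, the calls of both miRNAs depended on the scaling and on single libraries. In RPM, miR-26b was lower in High than in Low cells, with a difference of -0.44 (SE 0.13, adjusted p = 0.0230), and miR-26a differed by 0.20 (SE 0.10, adjusted p = 0.169, 95% interval -0.02 to 0.42). Here 28.1% of all rows were called and the median row lay at -0.11. After median-ratio rescaling the order of calls was the opposite, with miR-26a at 0.53 (adjusted p = 0.00866) and miR-26b at -0.11 (adjusted p = 0.599). That rescaling did not centre the tested rows in this comparison, since their median moved to 0.17. Quantile normalization gave -0.18 for miR-26a and -0.26 for miR-26b (adjusted p = 0.417 and 0.237). Without High 3, miR-26a was called at 0.30 (adjusted p = 0.0466), and the miR-26b call was lost without High 2, High 3 or Low 2, in turn (adjusted p = 0.0599, 0.0861 and 0.0754). Within the libraries labelled Combo, 2 on each side, the differences were 0.35 for miR-26a and -0.38 for miR-26b.

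High cells had more miR-26a than Sublow cells and more than Negative cells. The difference from Sublow was 1.04 (SE 0.10, adjusted p = 5.64e-06), in a comparison where 50.5% of rows were called and the median row lay at 0.07. The difference from Negative was 1.63, or 3.10-fold (SE 0.10, adjusted p = 4.45e-08), where 66.3% of rows were called and the median row lay at 0.57. Every High library lay above every Sublow and Negative library, and both calls held under each of the other scalings, from 0.47 to 0.97 against Sublow and from 0.60 to 1.08 against Negative. The lowest values, 0.47 and 0.60, came with miR-192, miR-194 and miR-215 left out of the total. That scaling did not centre the tested rows here, since their median lay at -0.47 and -0.61. miR-26b was lower in High than in Sublow cells at -0.54 (SE 0.13, adjusted p = 0.00404). Between High and Negative cells miR-26b differed by 0.10 (SE 0.13, adjusted p = 0.495), and median-ratio rescaling turned it to -0.45 (adjusted p = 0.0152), with the direction turned also under the 2 other scalings and the lane term. No High library carries the lane label of a Sublow or Negative library, and the lanes behind the Combo label are not stated, so no value within a lane was computed. With the lane label as a term, Combo included, miR-26a differed by 1.25 and 1.80 (adjusted p = 5.45e-04 and 3.83e-05). In that fit miR-26b differed by -0.61 and -0.05 (adjusted p = 0.0594 and 0.904). These values are linked across lanes only through Low 1, the single Low library outside Combo, and High 3 is alone on its lane.

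Negative cells had less of both miRNAs than Sublow cells in RPM, and both calls were lost under 3 other scalings, 1 of which turned the direction. The differences were -0.60 for miR-26a (SE 0.10, adjusted p = 7.08e-04) and -0.65 for miR-26b (SE 0.13, adjusted p = 0.00174), where 35.5% of rows were called and the median row lay at -0.37. After median-ratio rescaling they were -0.12 and -0.17 (adjusted p = 0.563 and 0.468), and after quantile normalization 0.09 and 0.15 (adjusted p = 0.732 and 0.528). Within lanes L005 and L006 the miR-26a differences were -0.56 and -0.54, and those of miR-26b were -0.75 and -0.39, with 1 or 2 libraries on a side.

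The mean of the sorted populations was higher than Non-sorted cells for both miRNAs in RPM, with the direction of miR-26b turned under 3 other scalings. The difference was 0.76 for miR-26a (SE 0.10, adjusted p = 1.13e-04) and 0.36 for miR-26b (SE 0.12, adjusted p = 0.0367), where 36.2% of rows were called and the median row lay at 0.39. The miR-26b call was also lost with replicate number as a block (0.35, adjusted p = 0.0581), with a lane term (0.17, adjusted p = 0.510) and without Negative 2, Negative 3, Non-sorted 1 or Non-sorted 2, in turn (adjusted p = 0.0529, 0.0515, 0.0804 and 0.255). miR-26b lay near the median of all rows, and after median-ratio rescaling it stood at -0.03 (adjusted p = 0.909). miR-26a stood at 0.37 after that rescaling (adjusted p = 0.0412), and its call was lost when miR-192, miR-194 and miR-215 were left out of the total, at 0.26 (adjusted p = 0.173), and with quantile normalization, at 0.26 (adjusted p = 0.167). The mean weights the 4 sorted populations equally, which need not match their shares of the tissue.

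**Figure D2:**
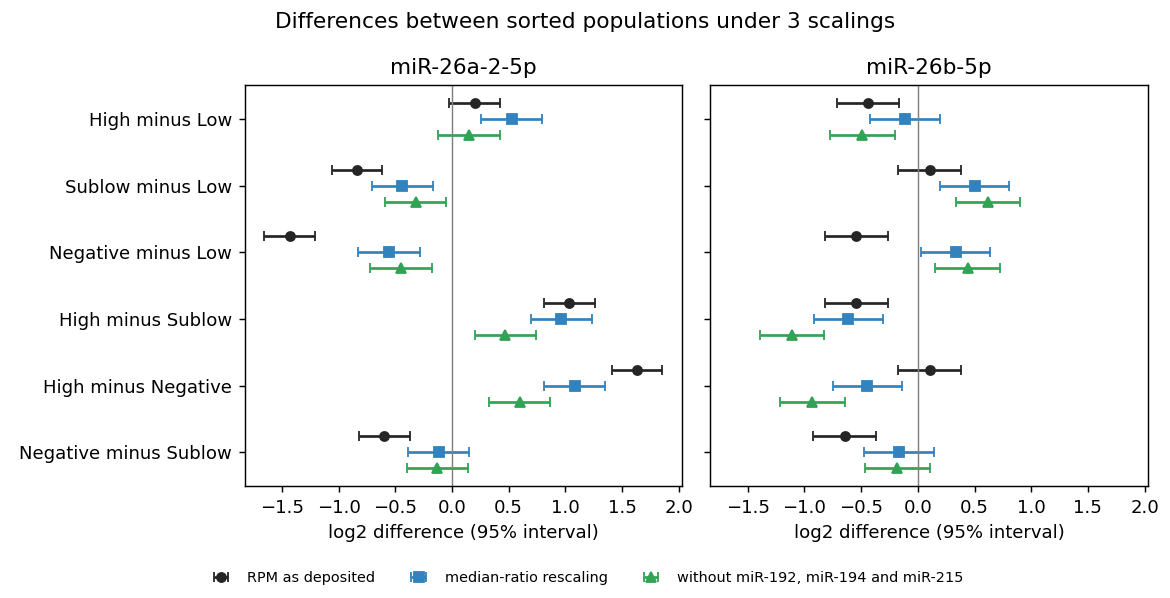
Differences of miR-26a-2-5p and miR-26b-5p for the 6 pairs of sorted populations, as log2 differences (first minus second) with 95% intervals from limma, under 3 scalings of the same table (RPM, RPM without miR-215, miR-192 and miR-194, and median-ratio rescaling). The row of miR-26a keeps its direction in all 6 pairs under these 3, though quantile normalization, which is not drawn, turns it for High minus Low (-0.18) and Negative minus Sublow (0.09), while miR-26b changes side for Negative minus Low and High minus Negative.

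The ratio of the family's members within a library does not depend on a scaling that multiplies all its rows by 1 factor. Quantile normalization is not of this kind. Under it, High minus Low was -0.18 for miR-26a and -0.26 for miR-26b, and High minus Negative was 0.68 and -0.71. It was taken up after the values had been seen and is given as a description with no test. miR-26a-2-5p divided by miR-26b-5p was 1.36, 1.44 and 1.46 in Negative, 1.33, 1.56 and 1.24 in Sublow, 2.92, 2.37 and 2.62 in Low, 3.88, 4.44 and 3.99 in High and 1.47 and 1.78 in Non-sorted libraries. Means were 1.42 ± 0.0574 in Negative, 1.38 ± 0.163 in Sublow, 2.64 ± 0.276 in Low and 4.10 ± 0.300 in High (SD, n = 3 each), and 1.63 ± 0.219 in Non-sorted cells (SD, n = 2). Negative and Sublow libraries overlapped, every Low library lay above both of these populations, and every High library lay above every Low one. High and Negative cells differed by 1.53 on the log2 scale, a 2.88-fold difference of the ratio, and High and Low cells by 0.64, or 1.56-fold. The balance of the family lay further toward miR-26a in Low and High libraries than in any Negative or Sublow library. Because adapter ligation can favour 1 sequence over another, the ratio is compared between libraries and is not a molar ratio.

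The ratio was also taken in reads with a shifted start, which are listed in separate rows of the same libraries. Shares of these rows within each arm changed little between populations, so they give no independent support. In rows that start 1 base upstream, the ratio was 1.82 ± 0.117 in Negative, 1.83 ± 0.251 in Sublow, 3.58 ± 0.478 in Low and 5.65 ± 0.245 in High cells (SD, n = 3 each). In rows that start 1 base downstream, it was 0.932 ± 0.0110 in Negative, 0.813 ± 0.0409 in Sublow, 1.63 ± 0.0978 in Low and 2.78 ± 0.343 in High cells (SD, n = 3 each). In both kinds of row, High stood above Low and Low above the remaining sorted populations, as at the annotated start.

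**Figure D3:**
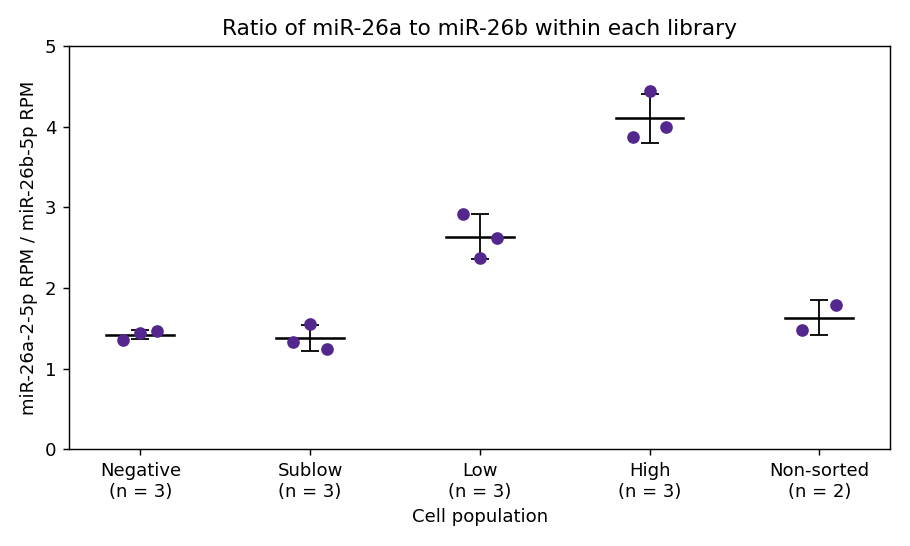
Ratio of miR-26a-2-5p to miR-26b-5p within each library, on a linear axis from 0, by cell population. Points are libraries, lines are means and bars are SD. The 3 High libraries lie between 3.88 and 4.44, above the Low libraries at 2.37 to 2.92 and the Negative and Sublow libraries at 1.24 to 1.56.

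Shifted starts change the seed and so the set of messages a miRNA could pair with. The signed number at the end of a row name was read as the distance of the read's start from the annotated one, since the table does not define it. The table holds 43 rows named for a miR-26 hairpin, of which 30 are shifted 5p rows and 10 are 3p rows, and 6 rows were at 0 throughout. On all 3 hairpins a start 1 base upstream gives the seed UUCAAGU, 1 base downstream CAAGUAA and 2 bases downstream AAGUAAU, and no RefSeq mouse mature miRNA has any of these seeds. In front of the mature start stands G in Mir26a-1 and in Mir26b but A in Mir26a-2, as the hairpins above show. Even so, the upstream rows of the 2 copies of miR-26a differed by only -0.112 to 0.261%, so these rows too do not tell the copies apart.

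Most reads of each arm started at the annotated base. Shifted rows together made up 4.48 ± 0.0588% of the miR-26a-2-5p arm in Negative, 4.53 ± 0.0550% in Sublow, 4.65 ± 0.244% in Low and 5.03 ± 0.198% in High cells (SD, n = 3 each), and 4.42 ± 0.233% in Non-sorted cells (SD, n = 2). The sorted populations differed in an exact permutation test over 12 libraries (p = 0.0263, adjusted over 3 arms 0.0424), and the call was lost when the rows shifted by 4 bases upstream were left out, an alternative added after the data were seen (exact permutation p = 0.0579, adjusted 0.0956). For miR-26b the shares were 4.57 ± 0.281% in Negative, 4.66 ± 0.230% in Sublow, 4.72 ± 0.376% in Low and 5.15 ± 0.695% in High cells (SD, n = 3 each), with an exact permutation p of 0.437.

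The arms divided their shifted reads differently. Starts 1 base upstream held 3.12 to 3.31% of the miR-26a-2-5p arm as population means over the sorted cells, and 2.38 to 2.46% of the miR-26b-5p arm. Starts 1 base downstream held 1.23 to 1.48% of the miR-26a-2-5p arm and 2.02 to 2.19% of the miR-26b-5p arm. In every library the upstream share was larger for miR-26a and the downstream share larger for miR-26b, and neither share was called different among populations for either miRNA (exact permutation p from 0.0878 to 0.969).

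The levels of these shifted rows went with those of their arms. For miR-26a-2-5p, the row shifted by 1 base upstream differed by -1.48 between Negative and Low cells (adjusted p = 1.23e-06 in limma), and the row shifted by 1 base downstream by -1.42 (adjusted p = 2.03e-07). Between High and Low cells, the downstream row was called at 0.37 (adjusted p = 0.0210), and the upstream row stood at 0.25 (adjusted p = 0.194). For miR-26b-5p, Negative minus Low was -0.51 in the upstream row (adjusted p = 0.0187) and -0.61 in the downstream row (adjusted p = 0.00165).

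The family's 5p rows shifted by 4 bases upstream were above 0 in the Combo libraries only. The 3p row of Mir26a-2 with this shift was above 0 in 5 libraries, Negative and Non-sorted ones among them, at up to 4.12 RPM. The miR-26a-2-5p row had 38.4 and 169 RPM in High 1 and High 2 and 25.3 and 41.9 RPM in Low 2 and Low 3, and the miR-26b-5p row had 18.3, 74.2, 11.4 and 14.7 RPM in the same libraries. High 3 and Low 1, which were not Combo libraries, listed both rows at 0, as did all Negative, Sublow and Non-sorted libraries. The copies of miR-26a differed here, mmu-mir-26a-2-5p set against mmu-mir-26a-1-5p by -22.8 to -16.5%. The 4 added bases differ among the hairpins, giving the seeds UCGUUCA in Mir26a-1, GGAUUCA in Mir26a-2 and CAGUUCA in Mir26b. Of the 104 rows with this shift in the whole table, on either arm, 83 were above 0 in a Combo library and 23 in another library. In all 4 Combo libraries and no other, 33 were above 0. Summed over the table they held 530 to 2933 RPM in Combo libraries and 57.8 to 629 RPM in the others, so the sums overlapped, with Negative 1, Negative 2 and Non-sorted 1 (604, 629 and 552 RPM) above Low 2.

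**Figure D4:**
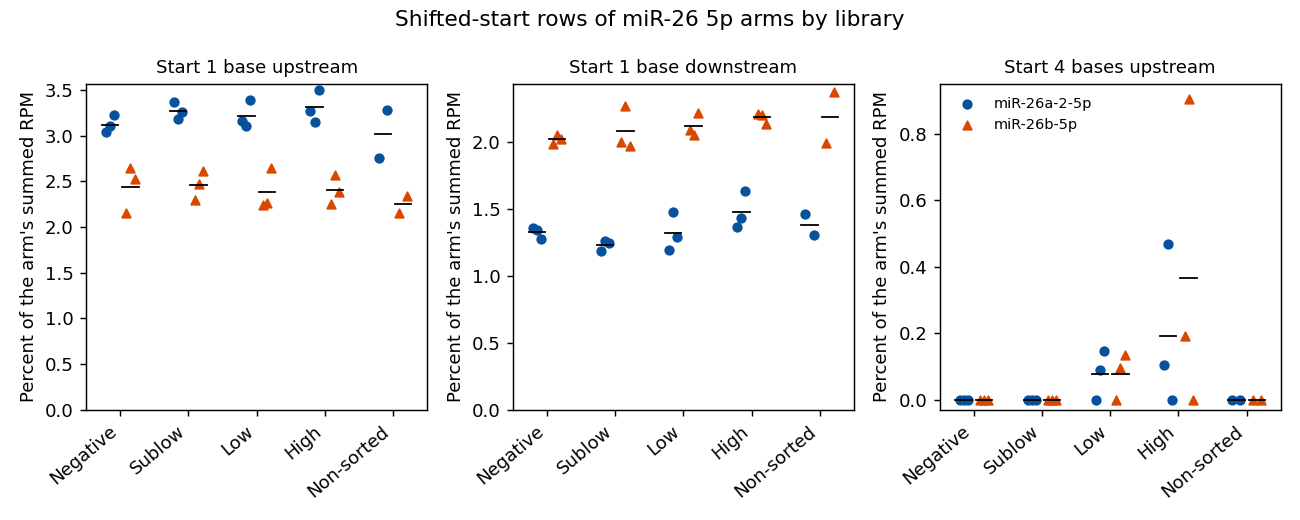
Share of the miR-26a-2-5p and miR-26b-5p arms in rows that start 1 base upstream, 1 base downstream and 4 bases upstream, as percent of the arm's summed RPM, by population. Points are libraries and lines are means. The upstream share is larger for miR-26a and the downstream share for miR-26b in each library, and the last panel is above 0 in Low and High libraries alone.

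The 3p arms were barely detected. The rows of miR-26a-2-3p reached at most 20 RPM summed and those of miR-26b-3p 8.99 RPM. The listing limit, the smallest value above 0, was 0.62 to 5.55 RPM by library, assumed to be about 10 reads. No 3p row of Mir26a-1 is listed, so that arm could not be analysed. The 3p share of the rows named for Mir26a-2 was 0.125 ± 0.0440% in Negative and 0.0302 ± 0.0295% in Sublow cells (SD, n = 3 each). It was 0.0179 ± 0.0163% in Low and 0.0149 ± 0.0151% in High cells (SD, n = 3 each). In Non-sorted cells it was 0.125 ± 0.0014% (SD, n = 2). These rows count miR-26a reads that cannot be assigned to either hairpin and may come from Mir26a-1. The share is therefore not one of Mir26a-2 reads alone. An exact permutation test over the sorted libraries gave p = 0.0130 (adjusted over 2 hairpins 0.0260), and p = 0.419 for the annotated start alone. For Mir26b the exact permutation p was 0.110. The denominator is the miR-26a level, which itself was lowest in Negative cells, and summed 3p levels were 8.61 to 20 RPM in Negative and 0 to 8.99 RPM in High libraries.

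Other abundant miRNAs shared the course of each member. Likeness was measured as Pearson's r of log2(RPM + 1) over the 14 libraries among 99 miRNAs of other families with a mean of at least 100 RPM, as a description, since all points share the libraries and their scaling. Most like miR-26a-2-5p were miR-30d-5p (r = 0.968), miR-125a-5p (0.956), miR-425-5p (0.954), let-7e-5p (0.954) and miR-744-5p (0.949). miR-30d-5p averaged 6088 RPM in Negative, 8900 in Sublow, 14854 in Low, 14529 in High and 6034 in Non-sorted cells, also low in Negative and high in Low and High cells, but with High no higher than Low. let-7e-5p had a far steeper course, with 64.6 RPM in Negative, 366 in Sublow, 1945 in Low and 3034 in High cells. Most like miR-26b-5p were miR-16-2-5p (r = 0.889), let-7g-5p (0.882), miR-421-3p (0.870), miR-222-3p (0.862) and miR-148b-3p (0.842). let-7g-5p averaged 12820 RPM in Negative, 19095 in Sublow, 17285 in Low, 12286 in High and 12783 in Non-sorted cells, with a high middle like that of miR-26b. Between the members themselves r was 0.346. Each list holds the 5 highest r of the 99, so the lists cannot show whether this value is low.

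The family belongs to the miRNAs known to be repressed by MYC in B-cell lines, and that list was counted as a whole. All 20 listed miRNAs were matched and 18 were tested, miR-26a and miR-26b among them. In Negative against Low cells, 12 were lower and 1 higher, with a median of -0.88 over the list and -0.90 over all rows, where 49.5% of all rows were lower and 16.5% higher. In Sublow against Low cells, 7 were lower and 1 higher, with medians of -0.27 and -0.43, where 24.3% of all rows were lower and 10.4% higher. In High against Low cells, 7 were lower and 1 higher, with medians of -0.37 and -0.11, where 20.1% of all rows were lower and 7.99% higher. After median-ratio rescaling the counts were 5 lower and 4 higher, 3 lower and 3 higher, and 2 lower and 4 higher, in the same order of comparisons. The shares of all rows called lower or higher after that rescaling are not given here, so these counts cannot be set against them. Medians of the list and of all rows were then -0.008 and -0.022, 0.10 and -0.006, and -0.05 and 0.17, in that order. The higher miRNA in all 3 comparisons was miR-22-3p, at 1.85 in Negative, 0.95 in Sublow and 0.81 in High against Low cells (adjusted p = 3.92e-07, 4.22e-04 and 0.00148). Among those called lower in Negative cells, miR-146a-5p differed most at -3.64 (adjusted p = 3.69e-05), followed by miR-26a itself and miR-30d-5p at -1.30 (adjusted p = 6.07e-06). Among those called lower in High against Low cells, miR-34a-5p, which p53 activates, differed most at -1.63 (adjusted p = 0.00517), followed by miR-29a-3p at -0.75 (adjusted p = 0.00581). The comparisons share the Low libraries. The list did not move as a block, since miR-22-3p and miR-146a-5p went opposite ways.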

How the data were processed

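Per the labels, small RNA libraries were prepared with a TriLink CleanTag kit. The authors deposited 1 table of RPM values for 2030 miRNA rows in 14 libraries, each column summing to 1e+06. The smallest value above 0 in a library was assumed to be about 10 reads, with rows under it listed at 0. Per the submitters' processing notes, the genome build was mm9, while no aligner or read-counting rule is given in the sources used here. How reads that fit more than 1 hairpin or start were counted affects the copies of miR-26a and the shifted rows. Under the assumed 10 reads, low values were whole reads within 0.1 read in 70.8 to 84.6% of cases, too few for a count test.

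Rows with at least 10 RPM in at least 3 libraries (588, of which 275 at the annotated start and 313 shifted) were fitted as log2(RPM + 1) with limma 3.58.1 in R 4.3.3, with 5 group means and a mean-variance trend (residual df 9), two-sided, and Benjamini-Hochberg adjustment at 0.05. This scale understates changes of low rows. The residual spread is shared by all groups. Of the rows named for the family, 14 passed this filter, all 3 members among them. Shares within an arm were tested by exact permutation of all 369600 assignments of 12 libraries to 4 populations, whose smallest possible p is 6.49e-05. Scripts were tested on simulated data. Permutation tests ran in Python 3.11.15 and plots were made with matplotlib 3.10.9. Sequences are RefSeq entries of GRCm38.p6, and host genes come from an annotation of GRCm38.

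Named were all miR-26 rows, for each member the 5 miRNAs most like it, the 10 most abundant miRNAs where needed, and the MYC-repressed list, drawn up from general knowledge. Members and lists were chosen with earlier results of these data known. Alternatives were other pseudocounts, filters and scalings, terms for replicate number, lane and miR-295-3p, and leaving out each library.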

Additional observations from a re-analysis of the deposited data

How the results depend on the processing

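Levels of miR-26a in Negative, Sublow and High cells kept their direction against each other and against Low under most settings, while those of miR-26b depended on scaling, and causes were not tested beyond what each setting changes. For miR-26a-2-5p, High minus Low was 0.53 after median-ratio rescaling, -0.18 with quantile normalization and 0.35 with a lane term, and mmu-mir-26a-1-5p gave -0.16 with quantile normalization. Sublow minus Low was -0.32 without miR-192, miR-194 and miR-215. Negative minus Sublow was -0.12, -0.13 and 0.089 after median-ratio rescaling, without those miRNAs and with quantile normalization (0.076 for mmu-mir-26a-1-5p), and sorted minus Non-sorted was 0.26 in the last pair of settings. For miR-26b-5p, in the same order of 3 scalings, Negative minus Low was 0.33, 0.44 and 0.45, High minus Negative -0.45, -0.93 and -0.71, Negative minus Sublow -0.17, -0.18 and 0.15, and sorted minus Non-sorted -0.029, -0.14 and -0.053. Its High minus Low was -0.11 after median-ratio rescaling, -0.26 with quantile normalization, -0.38 with a lane term, and -0.44 with no filter (adjusted p = 0.0562) or no trend (adjusted p = 0.0640). Its Sublow minus Low was 0.50 after median-ratio rescaling and 0.62 without miR-192, miR-194 and miR-215. With a lane term its Negative minus Low was -0.34, High minus Sublow -0.61, High minus Negative -0.046 and sorted minus Non-sorted 0.17. Its sorted minus Non-sorted call was also lost with no filter (0.36, adjusted p = 0.0953), with no trend (0.36, adjusted p = 0.0797) and with a term for libraries that list miR-295-3p (0.30, adjusted p = 0.0937).

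Leaving out each library in turn gave 0.14 to 0.30 for High minus Low of miR-26a-2-5p, -0.54 to -0.36 for that of miR-26b-5p, -0.015 (without Sublow 3) to 0.24 for its Sublow minus Low and 0.30 to 0.42 for its sorted minus Non-sorted, a call lost without Negative 2, Negative 3 or either Non-sorted library. The log2 ratio of miR-26a to miR-26b between High and Negative cells ran from 1.47 to 1.57. The shifted share of miR-26a-2-5p without rows shifted by 4 bases gave an exact permutation p of 0.0579, and 0.0637 for mmu-mir-26a-1-5p.

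Deviations of same-numbered libraries from their group means correlated at -0.354 to 0.776 (median 0.329, 17 of 26 pairs over 0.1), and those of differently numbered ones at a median of -0.106 (11 of 52 over 0.1). Not every same-numbered pair was over 0.1, so no pairing was taken from the numbers, although the labels give each number a shared code. That rule is not a test of pairing and does not exclude it. The exact permutation tests were not run within a number. A replicate block moved the called rows to 434 for the F test and 177 for High minus Low, against 425 and 165 without it, and among the members' calls the block lost that of miR-26b-5p in sorted minus Non-sorted (0.35, adjusted p = 0.0581).

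Called rows fell to 130 for Sublow minus Low, 159 for High minus Sublow, 239 for High minus Negative and 99 for sorted minus Non-sorted with a lane term, and in the last comparison to 121 after median-ratio rescaling, 126 without miR-192, miR-194 and miR-215, and 90 without Non-sorted 2. With fewer rows tested, those called were 207 in the F test at 100 RPM and 191 at annotated starts only. The MYC-repressed list changed with rescaling as given above. No value of the 3p share could be had from rows of at least 10 RPM in 3 libraries. Depth limits the 3p rows, which lie near the listing limit. The 4-base row of miR-26a-2-5p lay well above it in High 1 and High 2, at 38.4 and 169 RPM against 0.76 and 3.48 RPM. The libraries with the largest estimated depth, Sublow 1 and Negative 3 at 16.4 and 16.0 M reads, listed that row at 0. Whether depth has a part in where that row is listed was not tested.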
